A study of Saccharomyces cerevisiae with 3 samples.

Results

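The small noncoding RNA genes of budding yeast (Saccharomyces cerevisiae) on an Affymetrix yeast genome array comprised 141 genes with 143 probe sets, of 5656 genes with 6504 probe sets that are each assigned to a single gene. They were chosen by symbol alone (the SNR, SUF and YNC series), and the rule uses no measured value. The genes fell into 57 small nucleolar RNA (snoRNA) genes with 59 probe sets, 81 transfer RNA (tRNA) genes with 81 probe sets, and 3 spliceosomal small nuclear RNA (snRNA) genes that share the SNR series of names. The RefSeq annotation of assembly R64 gave each of them the matching RNA type. That annotation lists 76 snoRNA, 299 tRNA and 6 snRNA genes, and those outside the 141 are not analysed here, apart from 11 tRNA and 1 snRNA probe sets of genes with other names.

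The array measurements came from 3 independent cultures of a single group, so the values describe that condition and no comparison with another condition was made. Each culture was a chemostat at steady state, a fermentor fed at a constant rate so that growth is held at a set speed, and it was aerobic and limited by carbon. Growth was set at a dilution rate of 0.10 per h, at 30 °C and pH 5.0, with dissolved oxygen above 80% of air saturation. The medium held 7.5 g per l glucose, 5.0 g per l ammonium sulphate and 4.5 mg per l zinc sulphate heptahydrate. The labels do not name the strain.

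Most snoRNAs guide chemical modification of ribosomal RNA in the nucleolus. C/D box snoRNAs direct ribose methylation and H/ACA box snoRNAs direct the conversion of uridine to pseudouridine, while a few, such as U3 and U14, are needed to cut the ribosomal precursor. tRNAs carry amino acids to the ribosome and are transcribed by RNA polymerase III from promoters within the gene, often from many near-identical copies across the genome. Mature snoRNAs and tRNAs lack the poly(A) tail of messenger RNA, and the labelling used here, a standard Affymetrix assay for eukaryotic messenger RNA, normally starts from that tail. Whether mature RNA, a precursor or a transcript running across the gene gave a signal was not tested.

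A probe set's value is its deposited intensity, a brightness on a linear scale. Brightness depends on the probes as well as on the RNA, so the order of probe sets given here is an order of brightness and not of abundance. A probe set was called dim when its mean over the 3 cultures lay under 39.0, the 30th percentile of the 6504 single-gene probe sets, and bright above 556, the 90th percentile. The highest signal of the 9 control probe sets designed on the sense strand, which should find no target, was 26.3 over all 3 arrays. This 1 value was set against the deposited signals of every culture, so it is a stricter limit on a dimmer array. Arrays differed in overall brightness, with medians of 47.5, 111 and 84.7 in cultures 1, 2 and 3. Standard deviations of deposited signals include these array-wide differences, and differences between cultures were therefore read after scaling the arrays to a common median.

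Signals of the noncoding RNA genes lay far under those of other genes. In all, 110 of the 143 probe sets were dim (76.9%), against 1841 of the 6361 other single-gene probe sets (28.9%) and, by construction of the limit, 30.0% over all of them. None was bright, where 10% of all single-gene probe sets are. In 86 of the 143 (60.1%) the signal lay at or under the highest sense-strand control in every culture, against 15.6% of the other probe sets and 16.5% of all single-gene probe sets. Median signals in cultures 1, 2 and 3 were 6.24, 12.0 and 7.37 for snoRNA probe sets and 8.37, 24.1 and 14.7 for tRNA probe sets, against 48.8, 114 and 86.6 for the rest of the array. At the common median, the median log2 signal was 3.05 for snoRNA and 3.65 for tRNA probe sets, against 6.26 for all single-gene probe sets.

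**Figure D1:**
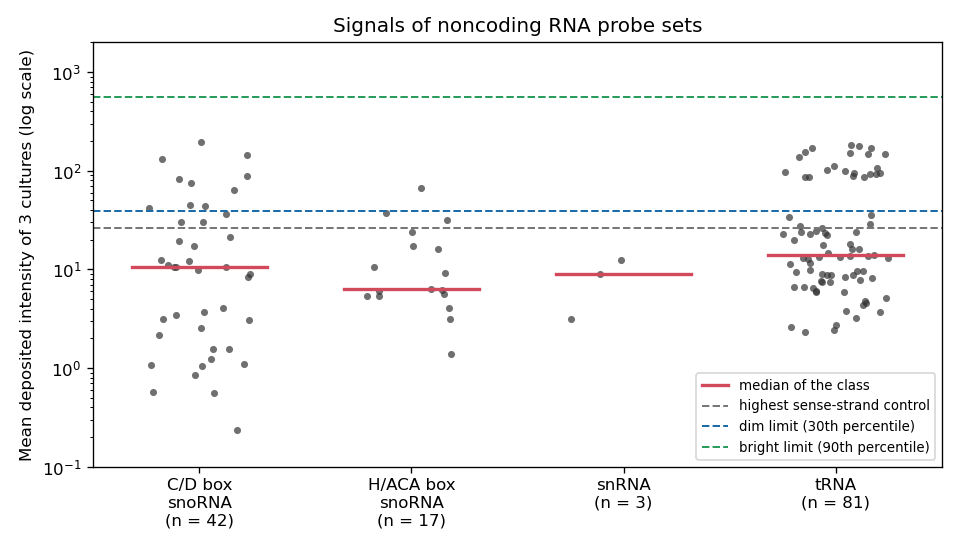
Mean deposited intensity over the 3 cultures (vertical axis, log scale) for each C/D box snoRNA, H/ACA box snoRNA, snRNA and tRNA probe set (points), with the median of each class as a red bar and the sense-strand control (26.3), dim (39.0) and bright (556) limits as dashed lines. No point reaches the bright limit, and the tRNA points fall into a lower and an upper band with none between 35.2 and 86.5.

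Among the snoRNAs, 48 of 59 probe sets were dim (81.4%). C/D box snoRNAs accounted for 42 probe sets, of which 32 were dim (76.2%), and H/ACA box snoRNAs for 17, of which 16 were dim (94.1%). The median of the mean signals was 10.5 for C/D box and 6.26 for H/ACA box probe sets. Of the 59, 41 lay at or under the sense-strand control in every culture and 9 lay above it in every culture. Of the 11 that were not dim, 10 are C/D box snoRNAs. SNR33, which guides pseudouridylation of large-subunit ribosomal RNA, was the only H/ACA box snoRNA that was not dim. Its signals were 35.7, 103 and 61.2 in cultures 1, 2 and 3, above the sense-strand control in all 3. It lies on chromosome III between CTO1 and the tRNA gene SUF16, both on the same strand. CTO1 had 24.2, 44.2 and 39.4 in cultures 1, 2 and 3. SUF16 was not dim, but its probe set is shared by a sequence family, so its signal cannot be placed at this gene. Just under the dim limit lay SNR5 with a mean of 37.1, SNR73 with 36.0 and SNR8 with 32.0.

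Of the 11 snoRNA probe sets that were not dim, 9 were those of genes transcribed together as a cluster. Yeast has several such polycistronic snoRNA units, whose long precursor is cut into the individual RNAs, and 5 of them were represented here, with 17 probe sets of 17 C/D box genes lying next to each other on the chromosome in RefSeq. Of the 17, 9 were not dim, with a median of the mean signals of 41.5. Of the 42 snoRNA probe sets of genes outside these clusters, 2 were not dim and the median was 6.21. The share in clusters moves with the limit: 4 of 4 with the dim limit at the 50th percentile, 11 of 16 at the highest sense-strand control and 13 of 30 at the 10th percentile. Within the C/D box class alone, 1 of 25 probe sets outside the clusters was not dim, with a median of 4.05. All 59 snoRNA probe sets were measured on the same arrays, and only 6 of them carry a letter code that marks shared or incomplete probe designs. How well the probes bind is not known, and the cause of the difference between genes inside and outside the clusters was not tested.

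The cluster on chromosome XVI, SNR41, SNR70 and SNR51 in the order of transcription, had signal at each gene. SNR70, a guide for methylation of small-subunit ribosomal RNA, had the highest snoRNA signal, 119, 234 and 230 in cultures 1, 2 and 3 (194 ± 65.1, SD, n = 3). SNR51, a methylation guide for both ribosomal subunits, had 55.7, 244 and 136 (145 ± 94.3). SNR41, a small-subunit guide, had 42.7, 79.3 and 67.8 (63.3 ± 18.8). Culture 1 was lowest and culture 2 highest for all 3 genes, which is also the order of the array medians.

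The cluster of 7 genes on chromosome XIII changed between signal and background along its length. Its first gene, SNR78, a large-subunit guide, had 0.101, 4.35 and 0.212 in cultures 1, 2 and 3, well under the sense-strand control. The next gene, SNR77, a small-subunit guide, had 52.4, 137 and 73.8 (87.6 ± 43.9). SNR76, a large-subunit guide, followed with 21.2, 71.4 and 31.9 (41.5 ± 26.4). SNR78 and its next 2 neighbours thus sat on opposite sides of the dim limit. SNR75, another large-subunit guide, had 51.5, 108 and 85.7 (81.8 ± 28.5). SNR74, a small-subunit guide, had 5.86, 12.0 and 14.0. The 2 last genes guide large-subunit methylation: SNR73 had 25.2, 45.0 and 38.0, just under the dim limit by its mean, and SNR72 had 69.5, 176 and 153 (133 ± 55.9). In all, 4 of the 7 were not dim.

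The other 3 clusters, of 2 or 3 genes, each had 1 gene or none with a mean above the dim limit. On chromosome XII, SNR55, a small-subunit guide, had 21.0, 75.1 and 37.6 (44.6 ± 27.7), while SNR57 before it averaged 3.15 ± 1.53 and SNR61 after it 19.3 ± 4.27. On chromosome V, SNR67, a large-subunit guide, had 101, 70.9 and 52.9 (75.1 ± 24.5), and SNR53 after it 1.70, 1.76 and 1.23. The pair on chromosome X holds SNR190 and SNR128, the gene of U14. U14 had 18.8, 44.2 and 26.6, passing the sense-strand control in cultures 2 and 3, and SNR190 had 0.119, 0.364 and 1.21.

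**Figure D2:**
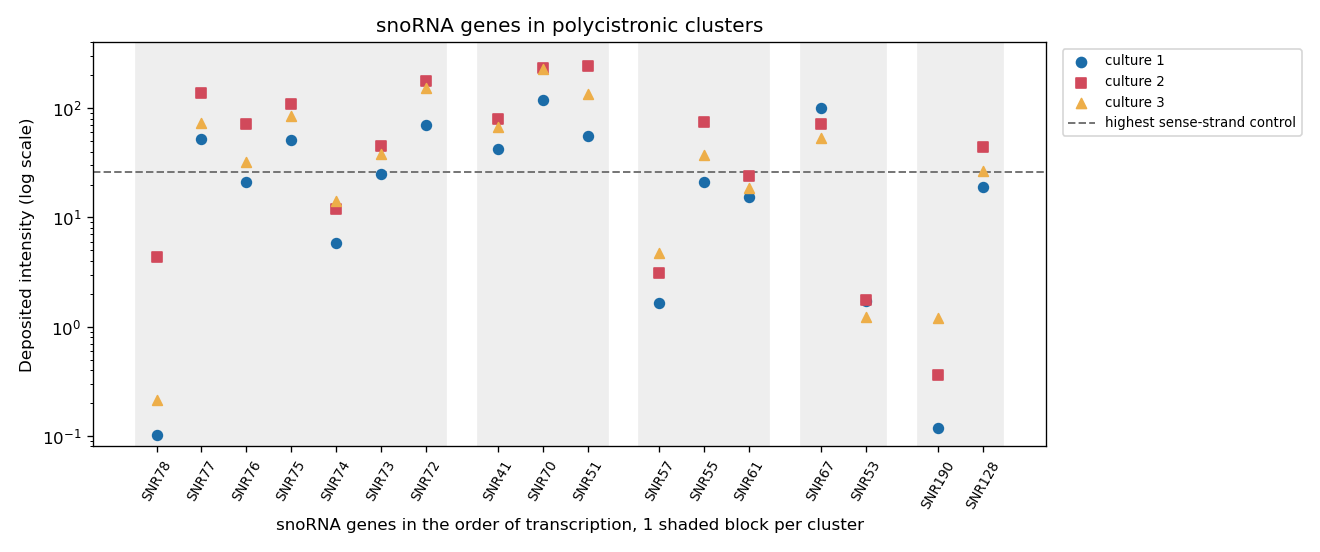
Deposited intensity in each of the 3 cultures (vertical axis, log scale) for the 17 snoRNA genes of 5 clusters, in the order of transcription from left to right with a shaded block per cluster; the dashed line is the highest sense-strand control signal (26.3). All 3 genes of the chromosome XVI cluster lie above the line in every culture, while neighbours in the chromosome XIII cluster, such as SNR78 and SNR77, lie on opposite sides of it.

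Some snoRNAs are cut out of introns. Of the measured snoRNA genes, 4 lie inside a protein-coding gene in RefSeq, and all 4 were dim, as were 81.4% of all snoRNA probe sets, so this count shows nothing particular to them. SNR38, inside the elongation factor gene TEF4, had 5.81, 12.8 and 6.36 in cultures 1, 2 and 3. SNR39, inside the ribosomal protein gene RPL7A, had 9.80, 16.8 and 11.1. SNR44, inside the ribosomal protein gene RPS22B, had 6.24, 29.0 and 12.6, and SNR54, inside the IMP dehydrogenase gene IMD4, had 0.257, 0.619 and 0.800. Their hosts had brighter probe sets, with 1 exception that the platform's annotation assigns to RPL7A. What this probe set targets was not checked. TEF4 had means of 208 and 499.9 at its 2 probe sets, RPS22B had 325, 402 and 1359 at 3, and IMD4 had 56.7 and 74.7. RPL7A had means of 611 and 2593 at 2 probe sets and 7.52 at another. Probes of a host and of its snoRNA differ, so these values show where signal was read and not how much of each RNA was present.

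Among other snoRNAs known for a special role or promoter, all those named here but SNR4 were dim. Of all snoRNA probe sets 81.4% were dim, so this shows nothing particular to them. SNR17A, a gene of U3, which takes part in cutting the ribosomal precursor, had 6.82, 8.95 and 10.8 (8.87 ± 2.01). SNR52, a C/D box gene transcribed by RNA polymerase III, had 3.78, 3.14 and 3.45. SNR45, which guides acetylation of ribosomal RNA, had 2.21, 0.625 and 3.58. SNR4, the other acetylation guide, was the exception, with 30.2, 73.9 and 27.3 (43.8 ± 26.1), above the sense-strand control in every culture. SNR17B, SNR10 and SNR30 are not analysed here.

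The lowest mean snoRNA signals were those of SNR79 (0.236 ± 0.105), SNR54 (0.559), SNR190 (0.565), SNR64 (0.850) and SNR47 (1.04), and such values carry no order among themselves. snoRNA genes of up to 110 nt had 8 of 32 probe sets that were not dim, and longer ones 3 of 27. Across the 59 probe sets, length (82 to 490 nt) and log2 mean signal had a Pearson r of 0.02 and a Spearman rho of 0.06. The points share the same arrays and differ in their probes. SNR39B and SNR62 have 2 probe sets each, with means of 10.6 and 3.71 for SNR39B and of 2.52 and 1.24 for SNR62, so both probe sets of a gene were dim.

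The 3 snRNA genes were dim too. These RNAs form the core of the spliceosome, the machine that removes introns. SNR19, the U1 gene, had 6.30, 20.0 and 11.4 in cultures 1, 2 and 3. SNR6, the U6 gene, had 3.87, 15.0 and 7.84, and SNR14, the U4 gene, had 1.18, 0.685 and 7.47. All 9 of these signals lay under the sense-strand control.

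The tRNA genes of the symbol rule split into a dim majority and a smaller set with clear signal. Of the 81 probe sets, 59 were dim (72.8%) and 22 were not, and no mean lay between 35.2 and 86.5. This gap holds only within the rule. The tRNA probe sets of SUP19, SUP16 and TGA1, outside it, had means of 49.6, 47.3 and 36.5. In 42 of the 81 the signal was at or under the sense-strand control in every culture, and in 21 it was above it in every culture. Nearly all carried a letter code in the probe set's name. Affymetrix uses the code f for probes shared by a sequence family and s for probes shared by several transcripts: 70 tRNA probe sets had f, 10 had s and 1 (YNCG0028W) had none. A coded probe set can read several near-identical tRNA copies, so the counts of tRNA genes here are counts of probe sets, not of separately measured RNAs. Among protein-coding probe sets, 20 of 118 f-coded (16.9%) and 257 of 406 s-coded ones (63.3%) were dim, against 25.2% of uncoded ones.

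The share of tRNA probe sets that were not dim differed between gene lengths, which the rule did not use. Length did not set the signal, as means ran from 2.42 to 177 at 72 nt and from 8.84 to 181 at 74 nt. Length and sequence family cannot be told apart here. All 12 probe sets of genes of 71 nt were not dim, out of 18 genes of that length in RefSeq. These 12 are all f-coded and may read the same RNA, so they are not 12 separate measurements. At 72 nt, 9 of 36 were not dim, at 73 nt none of 18, at 74 nt 1 of 5, at 82 nt none of 9, and the only gene of 83 nt was dim. RefSeq lists 72 tRNA genes longer than 83 nt, and none of them is among the 81.

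The 12 probe sets of 71-nt genes, all f-coded, lay close together in culture 2 and further apart in cultures 1 and 3. Their signals ran from 23.8 to 44.6 in culture 1, from 136 to 168 in culture 2 and from 81.5 to 141 in culture 3. Across the 12, cultures 1, 2 and 3 had coefficients of variation of 21.3%, 5.90% and 16.3%. Among them are SUF16, SUF17 and SUF23, glycine tRNA genes in which mutations suppress frameshifts by reading an enlarged codon. SUF16 on chromosome III had 31.4, 146 and 81.5 in cultures 1, 2 and 3. SUF17 on chromosome XV had 30.8, 146 and 89.0, and SUF23 on chromosome X had 23.8, 139 and 96.9. Genes on 3 chromosomes thus gave between 139 and 146 in culture 2, in probe sets that may read the same RNA.

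A second group of 8 f-coded probe sets of 72-nt genes was brighter. Its signals ran from 64.3 to 84.2 in culture 1, from 173 to 246 in culture 2 and from 121 to 201 in culture 3, with coefficients of variation of 9.53%, 10.9% and 14.8%. The 8 are YNCP0004C (mean 177), YNCL0044W (171), YNCJ0002C (170.0), YNCC0001C (155), YNCK0005C (150.3), YNCB0018W (149), YNCM0010W (147) and YNCE0012W (138), spread over 8 chromosomes. In cultures 1 and 2 the lowest of these 8 lay above the highest of the 71-nt group, while in culture 3 the ranges overlapped. The remaining 28 probe sets of 72-nt genes had 1 more that was not dim, the s-coded YNCJ0006W with 46.0, 115 and 114, and 27 with means of 2.42 to 34.0.

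The highest tRNA signal was that of an s-coded probe set of a 74-nt gene on chromosome X, YNCJ0015W, with 82.6, 261 and 199 (181 ± 90.8). The other four 74-nt genes had means of 8.84 to 27.7, and the 18 genes of 73 nt had means of 2.33 to 35.2. The 8 f-coded probe sets of 82-nt genes formed another narrow group, dim throughout, with means of 19.7 to 24.7. Their signals ran from 1.99 to 13.5 in culture 1, from 31.2 to 47.5 in culture 2 and from 14.7 to 29.2 in culture 3. YNCG0028W, of the same length and the only tRNA probe set without a code, had 8.74, 6.58 and 19.2.

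The other 6 SUF genes, frameshift suppressors that likewise encode glycine or proline tRNAs, were dim, as were 72.8% of all tRNA probe sets. SUF1 had 4.27, 12.1 and 3.61 in cultures 1, 2 and 3, SUF2 had 1.53, 8.25 and 1.54, and SUF6 had 7.23, 13.3 and 1.54. SUF3, SUF5 and SUF10 were among the 5 lowest tRNA probe sets, with means of 3.21, 2.42 and 2.73, beside YNCJ0018W with 2.33 and YNCJ0001C with 2.59. None of the 6 SUF genes reached the sense-strand control in any culture. Of all tRNA probe sets, 51.9% lay at or under that control in every culture.

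**Figure D3:**
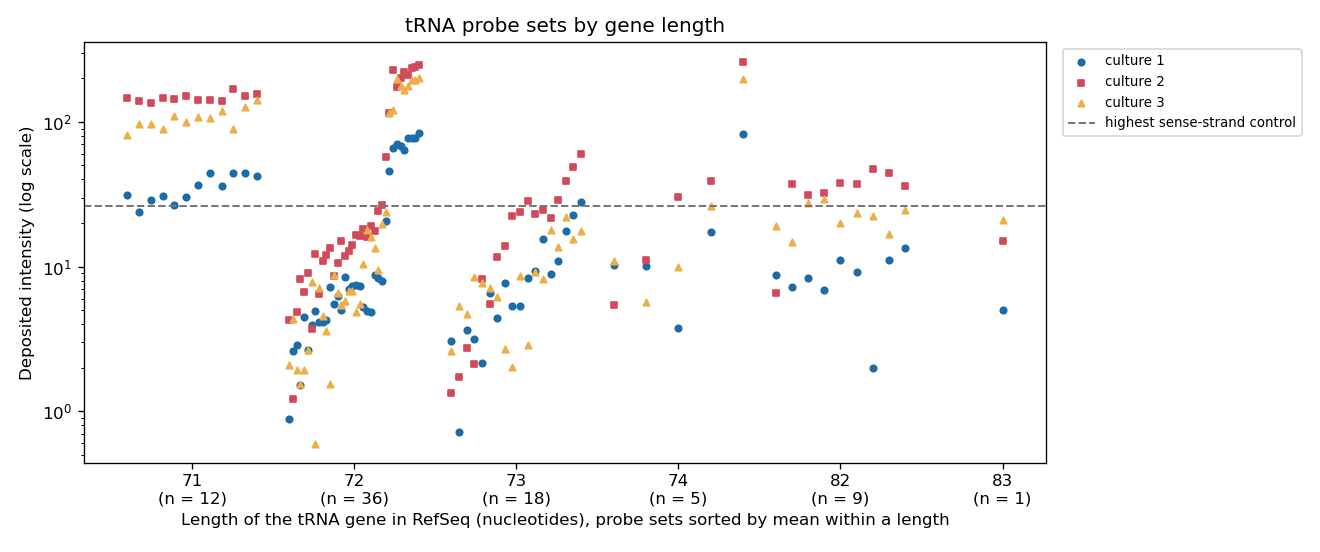
Deposited intensity in each of the 3 cultures (vertical axis, log scale) for the 81 tRNA probe sets, grouped by gene length in nucleotides (horizontal axis, n per length) and sorted by mean within a length; the dashed line is the highest sense-strand control signal (26.3). The 12 genes of 71 nt form a flat band in culture 2 between 136 and 168, and 9 of the 36 genes of 72 nt stand above the others of that length.

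Between cultures, the noncoding RNA probe sets that were not dim had wider ranges at the median than the array as a whole. The measure is the log2 range over the 3 cultures at a common median, and over 2-fold means a log2 range above 1. Of the probe sets that were not dim, 2 of 11 snoRNA and 4 of 22 tRNA probe sets were over 2-fold, against 3.91% of the 4553 single-gene probe sets that were not dim. The median log2 range was 0.50 for these snoRNA and 0.68 for these tRNA probe sets, against 0.35 for all 4553. The comparison is not matched for brightness, as none of the noncoding RNA probe sets was bright while 651 of the 4553 were. The 4 tRNA probe sets over 2-fold were all f-coded ones of 71-nt genes, which may read the same RNA. Coded protein-coding probe sets that were not dim also had wider ranges, with a median of 0.43 and 11 of 98 over 2-fold for code f, and 0.55 and 13 of 149 for code s. Both counts change with the settings and with the cultures left out: without culture 1, 2 or 3, the snoRNA count was 1 each time, and the tRNA count was 0, 2 and 4. Across probe sets, the log2 signals of 2 cultures had Pearson correlations of 0.89 to 0.91 for the 59 snoRNA probe sets and 0.86 to 0.89 for the 81 tRNA probe sets, against 0.97 for all 6504. Dim probe sets make up most of the first 2 sets.

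SNR67 had the widest log2 range among the 33 noncoding RNA probe sets that were not dim, at 1.77. Culture 1, the dimmest array, gave its highest deposited signal, 101, and cultures 2 and 3 gave 70.9 and 52.9. Only 11 of the 4553 probe sets that were not dim (0.242%) had their highest deposited signal in culture 1. Its deviations from its own mean at the common median were 1.17, -0.57 and -0.60 on the log2 scale, and without culture 1 the log2 range was 0.03. At the common median, its neighbours had their highest values in culture 1. RML2, a mitochondrial ribosomal protein gene on the opposite strand, had deviations of 0.26, -0.07 and -0.19, smaller than those of SNR67. The 0.26 lay within the 5th to 95th percentile of all 4553 in culture 1, -0.31 to 0.35. SNR53 had 0.83, -0.36 and -0.47, with deposited signals of 1.70, 1.76 and 1.23, all under the sense-strand control. SNR4 was the other snoRNA over 2-fold, with a log2 range of 1.04 set by culture 3, where its deviation was -0.67 against 0.30 in culture 1 and 0.37 in culture 2. Without culture 3 its log2 range was 0.06. Its neighbour on the same strand, the ribosomal protein gene RPS26B, had deviations of -0.09, 0.32 and -0.23 in cultures 1, 2 and 3, and PMD1 on the opposite strand had 0.07, -0.37 and 0.30.

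The 22 tRNA probe sets that were not dim shared a direction: at the common median, culture 1 was lowest for all 22. Over the 4553 single-gene probe sets that were not dim, culture 1 was lowest in 30.4%. Because the 22 were mostly f-coded, they are not 22 separate measurements. Among protein-coding probe sets that were not dim, culture 1 was lowest in 24 of 98 f-coded (24.5%) and 85 of 149 s-coded ones (57.0%). The 11 snoRNA probe sets that were not dim had 3 with culture 1 lowest, and the 59 dim tRNA probe sets had 17. The median deviations of the 22 in cultures 1, 2 and 3 were -0.33, 0.17 and 0.22 on the log2 scale, against 0.02, 0.01 and -0.01 for the 4553. Culture 1 also had the lowest array median, 47.5, and the part of overall brightness in the tRNA pattern was not tested.

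By group, the 71-nt genes deviated more than the brighter 72-nt genes. The median deviations of the 12 were -0.53, 0.38 and 0.25 in cultures 1, 2 and 3, and those of the 8 were -0.27, 0.08 and 0.18. Their log2 ranges ran from 0.45 to 1.31 for the 12 and from 0.36 to 0.67 for the 8. The 4 tRNA probe sets over 2-fold all belonged to the 71-nt group. They were SUF23 with a log2 range of 1.31, YNCP0023W with 1.21, YNCE0004C with 1.09 and SUF17 with 1.02, and without culture 1 these ranges were 0.12, 0.00, 0.21 and 0.32. YNCM0007C with 1.00 and SUF16 with 0.99 lay just inside the limit.

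**Figure D4:**
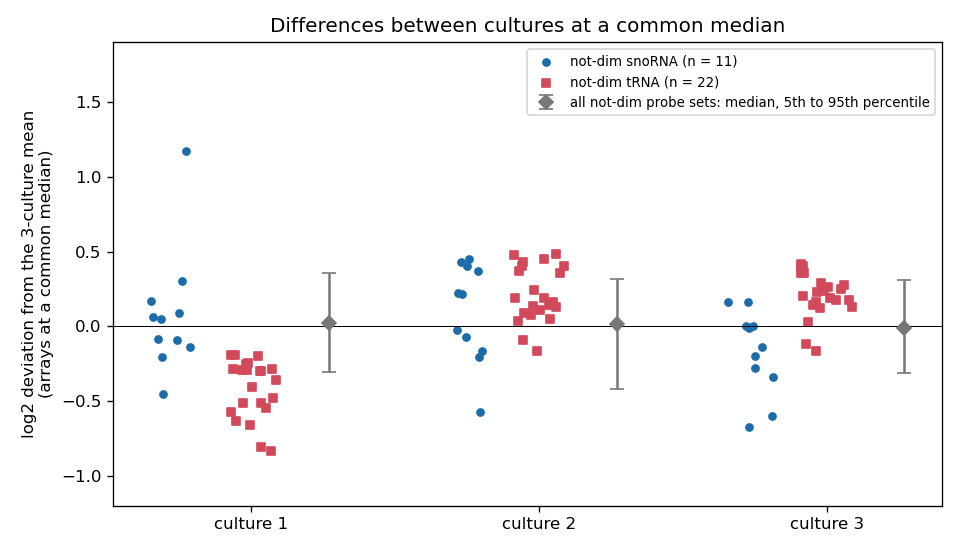
Deviation of each culture from the mean of the 3 (vertical axis, log2, arrays at a common median) for the 11 snoRNA and 22 tRNA probe sets that were not dim, beside the median and the 5th to 95th percentile of the 4553 single-gene probe sets that were not dim. All 22 tRNA points lie under 0 in culture 1, and the single snoRNA point at 1.17 there is SNR67.

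Genes whose products make or process these RNAs had signals like those of other genes. Of 59 protein genes listed, 58 had a probe set (NOP10 is not analysed here), 14 were dim, where 24.9% of all 5656 genes are with 1 probe set per gene, and none of the 44 that were not dim was over 2-fold between cultures, where 3.91% of all such probe sets are; both counts are near the shares over all genes. The core proteins of C/D box particles were all measured, with NOP58 bright at 673 ± 317 (SD, n = 3) and NOP56 the lowest at 168 ± 63.2. NOP1, the methyltransferase itself, had the widest log2 range of the 4, 0.51. Of the H/ACA core, NHP2 was bright at 664 ± 238, and the pseudouridine synthase CBF5 was the lowest at 405 ± 101 and the most variable, with a log2 range of 0.50.

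The other lists held all 14 dim members. Over all 5656 genes with 1 probe set each, 24.9% are dim, and these short lists were not tested against that share. The widest log2 range given is that among members that were not dim. Of 10 snoRNA particle assembly factors, 3 were dim, with the helicase gene RVB1 highest at 410 ± 154, HIT1 lowest at 12.5 ± 4.10 and PIH1 widest in log2 range at 0.86. Of 13 genes of early termination, end processing and RNA decay, 5 were dim, with the exonuclease gene XRN1 highest at 447 ± 150, AIR1 lowest at 16.3 ± 7.30 and NAB3 widest at 0.81. Of the RNA polymerase III initiation factors TFIIIB and TFIIIC and their repressor MAF1, 1 of 10 was dim. The TATA-binding protein gene SPT15 was highest there at 244 ± 86.1, TFC8 lowest at 19.2 ± 10.2 and TFC7 widest at 0.70. Of 18 genes of tRNA end processing, splicing and export, 5 were dim. The RNase P subunit gene POP5 was highest at 170 ± 71.9, another, RPR2, lowest at 19.9 ± 4.41, and POP3 widest at 0.80.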

How the data were processed

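RNA from 3 cultures was hybridized to 1 Affymetrix array each. The values are the intensities the authors deposited in a series table; per the submitters' processing notes they came from GCOS, and no source names the summary method, the scaling or the background correction. The number of arrays limits the precision, and with 1 group no test was made.

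Of 9335 probe sets, 60 controls and 328 assigned to several genes were left out, as were those assigned to no gene, which left 6504. Gene names come from the platform's annotation, and RNA types, lengths and gene order from RefSeq R64. Levels are deposited values; for differences between cultures the arrays were scaled to a common median, signals under 1 were set to 1 and log2 was taken. No sequence is printed.

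snoRNA box classes, clusters and protein lists are textbook knowledge. The rule for members reads only gene symbols, but it and the lists were proposed with earlier results of these data known. Members named are, for snoRNA and tRNA genes apart, the 10 highest and 5 lowest means and the 8 widest ranges that were not dim, all snRNA and SUF genes, clusters, intronic snoRNAs and a fixed list of well-known snoRNAs; of each protein list, the highest, the lowest and the widest. Neighbours of the snoRNAs over 2-fold, SNR33, CTO1, SNR5, SNR8, SNR73 and YNCG0028W were named after their values were seen. SNR39B, listed as intronic, lies in no gene in RefSeq. Alternatives covered scaling (including quantile and loess normalization with limma 3.58.1, R version 4.3.3), limits, floors, probe set codes and leaving out each culture. Scripts (Python 3.11.15, numpy 2.4.6, pandas 2.3.3) were tested on simulated data.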

Additional observations from a re-analysis of the deposited data

How the results depend on the processing

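The low signals held under most settings. Dim snoRNA probe sets numbered 48 to 50 of 59 and dim tRNA probe sets 57 to 59 of 81 when a culture was left out, and the counts stayed at 48 and 59 with scaled or quantile-normalized arrays. With the dim limit at the 10th percentile they were 29 and 28, where 10% of all single-gene probe sets are dim by construction. At the 50th percentile they were 55 and 59, against 50% of all. With the limit at the highest sense-strand control they were 43 and 55, while 5058 of all 6504 single-gene probe sets were not dim. No member was bright at the 75th, 90th or 95th percentile. The median log2 signal without a culture was 2.96 to 3.18 for snoRNA and 3.64 to 3.86 for tRNA probe sets. The only uncoded tRNA probe set was dim (1 of 1), at 3.37, and no uncoded tRNA probe set was left for a 2-fold count.

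Counts over 2-fold moved with many of the choices. Of 11 snoRNA probe sets, 2 passed in the setting reported, 8 as deposited, 7 with hybridization controls, and 1 each with quantile normalization, cyclic loess, log2(signal + 16) and a floor at the sense-strand control. With the dim limit at the 10th percentile, 50th percentile or absent, 7 of 30, 0 of 4 and 24 of 59 passed. Leaving out a culture gave 1 to 1, and uncoded probe sets alone 2 of 11. Of 22 tRNA probe sets, 4 passed, against 22 as deposited, 22 with hybridization controls and 1 with log2(signal + 16); with the 10th percentile or no limit, 20 of 53 and 40 of 81 did, and leaving out a culture gave 0 to 4. It was 6 with quantile normalization, 3 with cyclic loess, and 4 with the floor at the sense-strand control or the 50th percentile limit. Over all single-gene probe sets, 178 of 4553 passed, against 3463 as deposited (76.1%), 2657 with hybridization controls and 109 with log2(signal + 16). At the 10th percentile, the 50th percentile and no limit, 385 of 5853, 115 of 3252 and 804 of 6504 passed. Without a culture 51 to 115 did, and quantile normalization, loess and the floor gave 175, 173 and 173. SNR4 was under 2-fold with quantile normalization, cyclic loess, log2(signal + 16) and hybridization controls, and SNR67 as deposited and with hybridization controls. The causes were not tested, apart from changes fixed by construction. Fewer or more probe sets pass a moved limit, and leaving out a culture, adding 16 or raising the floor can only narrow these log2 ranges.

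All 22 tRNA probe sets stayed lowest in culture 1 under quantile normalization (34.5% of all), cyclic loess (32.9%), hybridization controls (96.6%) and deposited values (98.1%). The log2(signal + 16) setting cannot change which culture is lowest, so its result was fixed in advance. With the 10th percentile as the limit, 36 of 53 were. Of the snoRNA probe sets over the 50th percentile, the sense-strand control and the 10th percentile, 4 of 4, 11 of 16 and 13 of 30 were in clusters. These alternatives on culture 1 and on clusters were chosen after seeing the data. No paired analysis was possible because there is 1 group.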

Other observations

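Noncoding RNA probe sets outside the symbol rule were also mostly dim. TLC1, the telomerase RNA gene, had means of 34.0 and 30.2 at its 2 probe sets, RPR1, the RNA of RNase P, had 22.0, and SNR7-L, the U5 snRNA gene, had 5.27. Of the 11 tRNA probe sets with other names, 2 were not dim. These were the f-coded probe sets of the nonsense suppressor genes SUP19, with 20.5, 76.6 and 51.8 in cultures 1, 2 and 3, and SUP16, with 38.0, 54.2 and 49.7. Both genes are 82 nt long, a length at which none of the 9 genes of the rule was above the dim limit.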
